A study of Homo sapiens with 96 samples.

Results

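The deposited list of 4149 A-to-I RNA editing sites of K562 cells assigned 291 sites to 3' untranslated regions (3' UTRs), and these 291 sites are described here. They were taken by the element named in the list, whatever their type: 276 were annotated, meaning already held in editing databases, and 15 were unannotated. For 282 of the 291 sites at least one of 3 detection methods was named, and 9 were listed from Sanger sequencing alone and carried no editing level. The paper tested some of its predicted sites by Sanger sequencing, and part of the tested annotated 3' UTR sites showed no editing there. A listed site is therefore a prediction, and not every one need be edited. K562 is a human erythroleukemic cell line derived from chronic myeloid leukaemia. Every site was an A in the reference genome when read on its strand (291 of 291), and 281 lay in a 3' UTR of GENCODE release 44. The other 10 sites (6 in CARD8, 3 in MGAT1 and 1 in FHIT) did not, and keep the element given by the list.

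ADAR enzymes deaminate adenosine to inosine in double-stranded RNA, and inosine is read as guanosine during sequencing. In 3' UTRs the double strand is usually formed by neighbouring inverted copies of a sequence, so that many adenosines of the same segment are edited. Editing there leaves the protein unchanged and is known for its effects on the recognition of the RNA as self, on retention in the nucleus and on microRNA sites. The list excluded sites in repeats, so the Alu elements that hold most human 3' UTR editing were not part of it.

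Levels were available here for 96 samples of total RNA sequenced after rRNA depletion. Of 93 conditions, 90 had 1 sample and 3 had 2, and nothing in the labels said that samples came from separate cultures, so p-values measure only the spread between these samples. An editing level is the fraction of reads carrying G at the site, given by the authors as the mean of the methods detecting it. A level of 0 means that none was recorded, so an unedited transcript, an unexpressed one and one with too few reads cannot be told apart, and the read depth at each site was unknown. A site was counted as found where its level was above 0.

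Of the 96 samples, 80 were of K562 itself. The time course covered 6, 12, 24, 36 and 48 h of DMSO, the BCR-ABL inhibitor imatinib, the topoisomerase II poison etoposide or the histone deacetylase inhibitor romidepsin. In the chase, 6 h of DMSO, etoposide, the topoisomerase I poison SN-38, the PARP inhibitor talazoparib or the alkylating agent cyclophosphamide was followed by 0 to 6 h of actinomycin D, which blocks transcription. A similar chase with alpha-amanitin, an inhibitor of RNA polymerase II, followed DMSO or etoposide. Other samples had either blocker alone, DMSO alone for 2 or 6 h, rapamycin or Torin1, romidepsin for 3 or 6 h, or no treatment. A wash-out followed DMSO, SN-38 or etoposide in others. In a further set, 3 h of the kinase inhibitors AZ-20, KU-60019 and NU7441 together, or of DMSO, came before talazoparib for 3 h or SN-38, etoposide or the MRE11 inhibitor Mirin for 6 h, and DMSO was also followed by DMSO. The remaining 16 samples were K562 derivatives given doxycycline or water for 2 to 13 days: lines labelled as overexpressing AsiSI, Cas9 or LINE, or as shRNA knockdowns of CSB, LIG3 or MRE11A. Each derivative was a stably transduced line, and the labels do not say whether it was 1 clone.

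The etoposide and romidepsin columns of the time course conflicted with other site tables of the study, in which the levels stood under the other drug. These drugs were therefore not set against DMSO in the time course, and the comparison of late with early times does not change if the names are exchanged at each time. The derivative lines had few sites (5 to 33 of the 3' UTR sites in a sample), against 18 to 98 in the samples of K562 itself. A sample held a median of 40.5 found 3' UTR sites among a median of 235.5 found sites of the whole list.

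The sequence windows below show the sites on which the results turn: the most recurrent site of each of 8 genes and the highest AJUBA pair. Also shown is a pair of RSPH3 sites in facing arms of an inverted match, though not directly opposite each other. Each window was read from GRCh38/hg38 as RNA, 5′ to 3′ on the strand of the gene. It has 10 bases on either side of the edited A, which is in capitals.
GNL3L, chrX:54563297-54563297 (+): accucuacuuAugauggggcu
FAM20B, chr1:179073770-179073770 (+): uucuccucuuAgcacucucaa
EIF2AK2, chr2:37100954-37100954 (-): aguaaauacaAgucucaguca
SEC61A1, chr3:128071406-128071406 (+): gcccacgcuuAggaaugcuug
PPIA, chr7:44802500-44802500 (+): ucuugagggaAgcauauuggg
STRIP2, chr7:129488024-129488024 (+): ugcugggacuAgcuuucaggu
AJUBA, chr14:22972267-22972267 (-): caccucucagAggggucccgg
SMU1, chr9:33043866-33043866 (-): aagcagccauAuuuaauucuc
AJUBA, chr14:22972905-22972905 (-): cuagaaccaaAucaaagugua
AJUBA, chr14:22972906-22972906 (-): acuagaaccaAaucaaagugu
RSPH3, chr6:158973428-158973428 (-): uaguuggggaAgcagcauuuu
RSPH3, chr6:158974321-158974321 (-): gcaaaaugcuAcauccccaac

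A small number of 3' UTR sites recurred in most samples, and they were mostly edited at low levels. The A at position 54563297 of chromosome X, 2698 bases past the stop codon of GNL3L, a nucleolar GTPase, was found in 95 of 96 samples, at levels of 0.07 to 0.769 with a median of 0.182. The next was in FAM20B, a xylose kinase of proteoglycan synthesis, found in 80 samples at a median of 0.05. EIF2AK2, which encodes the double-stranded RNA sensor PKR, held 3 of the 10 most recurrent sites, at 37100954, 37100891 and 37100519 of chromosome 2, found in 76, 74 and 68 samples at medians of 0.178, 0.251 and 0.339. A second GNL3L site, at 54563341, was found in 76 samples at a median of 0.0454. SEC61A1, a subunit of the translocon of the endoplasmic reticulum, had a site in 76 samples at a median of 0.03. PPIA, or cyclophilin A, had one in 70 samples at 0.05. STRIP2, a partner of striatin phosphatase complexes, had one in 69 samples at 0.21. The tenth was in AJUBA, a LIM domain scaffold protein, found in 64 samples at 0.75. Medians of the 10 sites thus ran from 0.03 to 0.75. Whether the lowest of these levels differ from sequencing error was not tested.

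High levels were rare. Among sites found in at least 10 samples, the 5 highest medians belonged to AJUBA and to RSPH3, a protein of the radial spoke of cilia. The neighbouring AJUBA sites at 22972905 and 22972906 had medians of 0.8 in 31 samples and 0.781 in 36, followed by 0.75 for the AJUBA site at 22972267. The RSPH3 sites at 158973428 and 158974321 had medians of 0.69 in 15 samples and 0.631 in 22. Only 14 of the 281 sites found here had a median over 0.5.

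**Figure D1:**
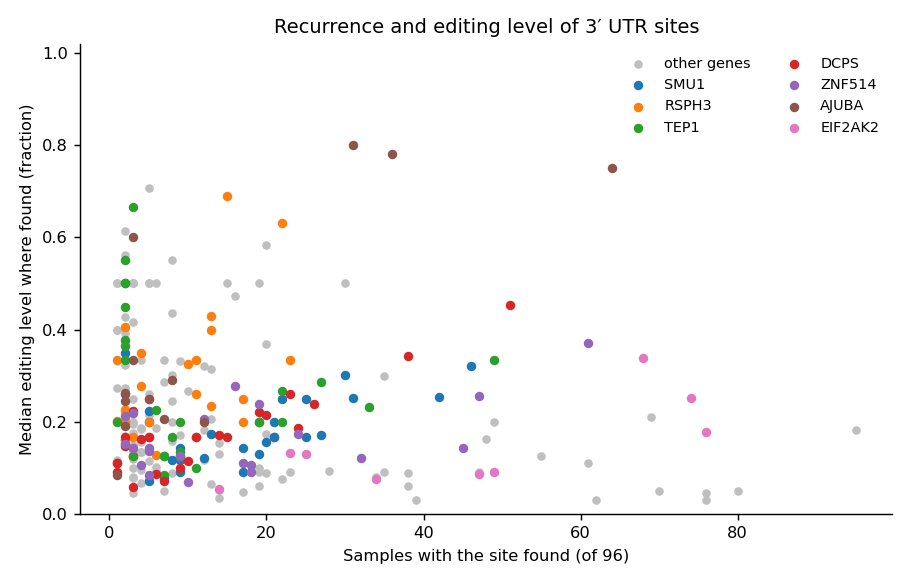
Each point is a 3' UTR site found in at least 1 of 96 samples, with the number of samples on the horizontal axis and its median editing level (fraction) where found on the vertical axis. The 7 host genes named in the legend are coloured. Most points lie below 20 samples, 3 AJUBA sites lie at 0.75 or above, and the point farthest to the right is the GNL3L site found in 95 samples.

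Of the 282 sites listed by a detection method, 281 were found in these 96 samples, 13 of them in 1 sample and 117 in at least 10, which is 41.5%. The median site was found in 7 samples (quartiles 3 and 19). For annotated introns the median was 3 samples and 13.4% of sites were found in at least 10. The median over sites of the site's median level was 0.2 in 3' UTRs and 0.4 in annotated introns. The same order held within samples. The median level of the annotated 3' UTR sites in a sample averaged 0.191 ± 0.062 (SD, n = 96), against 0.426 ± 0.0769 for annotated intronic sites, and was lower in 95 of 96 samples and equal in 1. The difference of -0.235 ± 0.0863 had a p of 2e-05 by a sign-flip permutation test over samples, two-sided, the smallest that 100000 resamples can give. The share of listed annotated sites found in a sample was 14.98% ± 7.07 in 3' UTRs and 5.52% ± 3.93 in introns, higher in 90 of 96 samples (difference 9.45 percentage points, permutation p = 2e-05). The 6 samples with the opposite order were all in the time course. Levels of sites with few reads can only take coarse values, and the part of depth in this difference was not tested.

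A few genes carried a large part of the list. The 291 sites lay in 81 genes, of which 47 had 1 site, and 5 genes held 130 sites (44.7%). SMU1, a splicing factor, and RSPH3 had 29 sites each, TEP1, a telomerase-associated protein, had 28, DCPS, the scavenger decapping enzyme, had 23, and the zinc finger gene ZNF514 had 21. AJUBA had 13, and EIF2AK2 and the sorting nexin SNX19 had 9 each. The genes differed in their recorded levels. The median of all recorded levels was 0.703 in AJUBA, 0.5 in the phosphodiesterase GDPD1, 0.297 in RSPH3, 0.25 in DCPS, 0.227 in TEP1, 0.185 in ZNF514, 0.182 in SMU1, 0.17 in EIF2AK2 and 0.09 in CARD8, an inflammasome protein. Only levels above 0 enter these medians, and they varied with the set of samples. In RSPH3 the median was 0.146 with romidepsin for 3 or 6 h and 0.675 in the wash-out. In EIF2AK2 it was 0.0993 with romidepsin for 3 or 6 h and 0.5 in the derivative lines. In AJUBA it was 0.536 in the actinomycin D chase and 0.813 in the wash-out. The part of detection in the order of the genes was not tested. Within a gene the spread was wide: the medians of single RSPH3 sites ran from 0.125 to 0.69, and those of SMU1 from 0.0714 to 0.35.

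Sites were packed into short segments. Joined where they lay within 100 bases on the same strand, the 291 sites formed 97 clusters, and 238 sites (81.8%) were in 44 clusters of more than 1 site. The largest spanned 132 bases of RSPH3 (chr6:158974266-158974397) with 19 sites, followed by 88 bases of SMU1 (chr9:33042260-33042347) with 17 and 149 bases of TEP1 (chr14:20366883-20367031) with 16. In 36 cases the next base was also a site. The 3 clusters had a found site in 36, 51 and 63 samples. Of annotated intronic sites 71.0% had another listed site within 100 bases, against 82.2% of annotated 3' UTR sites. At most 19 of the 29 SMU1 sites and 16 of the 29 RSPH3 sites were found together in a sample, whereas all 9 EIF2AK2 sites were. In TEP1, where 3 of the 28 sites carried no level, at most 13 were.

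The host genes were found in different sets of samples. SMU1 had a mean of 10.9 sites found in the 19 chase samples with actinomycin D, in each of which it was present, and 1.0 in the 20 time course samples, 7 of which had any. EIF2AK2 had means of 6.58 and 3.6 and was present in 19 of the 19 and 19 of the 20 samples. RSPH3 reached its highest mean of 13.0 in the 2 samples of romidepsin for 3 or 6 h, had 7.1 in the 10 samples of the kinase inhibitor pretreatment set, and had 0.4 in the time course. GDPD1 was the one of the 9 largest hosts with its highest mean in the time course, at 1.9 of 7 sites. For most conditions the set of an experiment and its treatment cannot be told apart, and a found site also needs the transcript to be expressed and covered. The 3 conditions with 2 samples had them in different sets. Their found 3' UTR sites were 35 and 46 for DMSO at 6 h and 43 and 64 for DMSO at 2 h. Romidepsin at 6 h had 27 in the time course, by the labelled name, and 50 in the short set.

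The base before the edited A was U at 121 sites, A at 108, C at 48 and G at 14, and the base after it was G at 147. ADAR enzymes are known to disfavour a preceding G. It preceded 4.81% of 3' UTR sites (95% Wilson interval 2.89 to 7.91) and 2.63% of annotated intronic sites (2.04 to 3.38), and G followed 50.5% (44.8 to 56.2) and 43.1% (41.1 to 45.2). Sites of a cluster share their sequence, so these intervals, which cover counting error only, are too narrow. The 13 sites with a preceding G and a level had a median of 0.125, against 0.203 for the 102 with A, 0.2 for the 120 with U and 0.169 for the 46 with C. The quartile ranges of these 4 groups overlapped.

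To describe possible double strands, the 51 bases around each site were aligned to the reverse complement of the window of 1000 bases on either side (match 1, mismatch -1, gaps -2 and -1). This window held the 51 bases themselves, so matches of a stretch with itself or with overlapping bases were not set aside. A score of at least 20 was reached by 141 of the 291 sites (48.5%), in 27 genes, and by 46.6% of annotated intronic sites. For 110 of the 141 the matching arm held at least 1 other 3' UTR site of the list, in 11 genes, so that both arms held listed sites. Whether both arms were edited together was not tested. In RSPH3 the sites at 158973428 and 158974321, shown above, lie in facing arms with 42 matched bases (85.7% identity) and centres 893 bases apart. In GDPD1 all 7 sites reached the score, with a median distance of 41 bases between the centres of the arms. All 21 ZNF514 sites and 27 of 28 TEP1 sites reached it, and none of the SMU1, DCPS or SNX19 sites did. Opposite the edited A the arm had U for 114 of 141 sites and C, an A-C mismatch, for 21 (14.9%, Wilson interval 9.95 to 21.7), against 24.3% (21.8 to 27.01) of the intronic sites that reached the score. A match is a description of the sequence, and pairing was not measured.

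The first question over samples was whether 3' UTR editing changed as the cultures aged in the time course. The number of 3' UTR sites found was 34.6 ± 8.83 at 6 and 12 h (SD, n = 8) and 39.8 ± 8.05 at 24 to 48 h (n = 12), higher late in all 4 treatments but not called (exact permutation p = 0.115, Benjamini-Hochberg adjusted p = 0.292 over 27 results). The rise was called with 1 site counted per cluster (5.79, exact permutation test, adjusted p = 0.0312) and with levels of at least 0.1 (10.0, adjusted p = 0.0365). Their share of all found sites fell from 22.6% ± 4.62 to 9.69% ± 3.1, lower in all 4 treatments (exact permutation p = 0.0002, the smallest possible, adjusted p = 0.0054). Intronic sites found rose from 77.9 ± 13.4 to 327.8 ± 120.7 over the same times (exact permutation p = 0.0002).

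Levels at 3' UTR sites were higher late in the main setting, though several alternatives did not call the difference. The adjusted level is the mean over found sites of the level minus that site's mean over the samples in which it was found. It was 0.0199 ± 0.0381 early and 0.0749 ± 0.0265 late, higher in all 4 treatments (difference 0.055, exact permutation p = 0.002, adjusted p = 0.027). It was -0.007 at 6 h and 0.091 at 48 h as the mean of 4 samples each. The same measure for introns was 0.0221 ± 0.021 early and 0.0129 ± 0.0282 late, and the 3' UTR measure minus the intron measure rose by 0.0642 (exact permutation p = 0.002, adjusted p = 0.018 over 9 comparisons, a test added after seeing the data). With levels under 0.1 set aside the rise was 0.0252 and was no longer called (exact permutation test, adjusted p = 0.331). Within imatinib and DMSO alone it was 0.0673 (exact permutation test, adjusted p = 0.108), its unadjusted p being the smallest that these treatments allow. The call was also lost without DMSO, imatinib or romidepsin (exact permutation test, adjusted p of 0.1, 0.0945 and 0.1, differences of 0.0454, 0.0564 and 0.056) and held without etoposide. The results without etoposide and without romidepsin use the labelled names, and would change places if those names are exchanged. The list needed a maximum level above 0.2, and some weakly edited sites, such as those of SEC61A1 and FAM20B, had their highest level in a late sample. The part of this filter in the late difference was not tested.

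**Figure D2:**
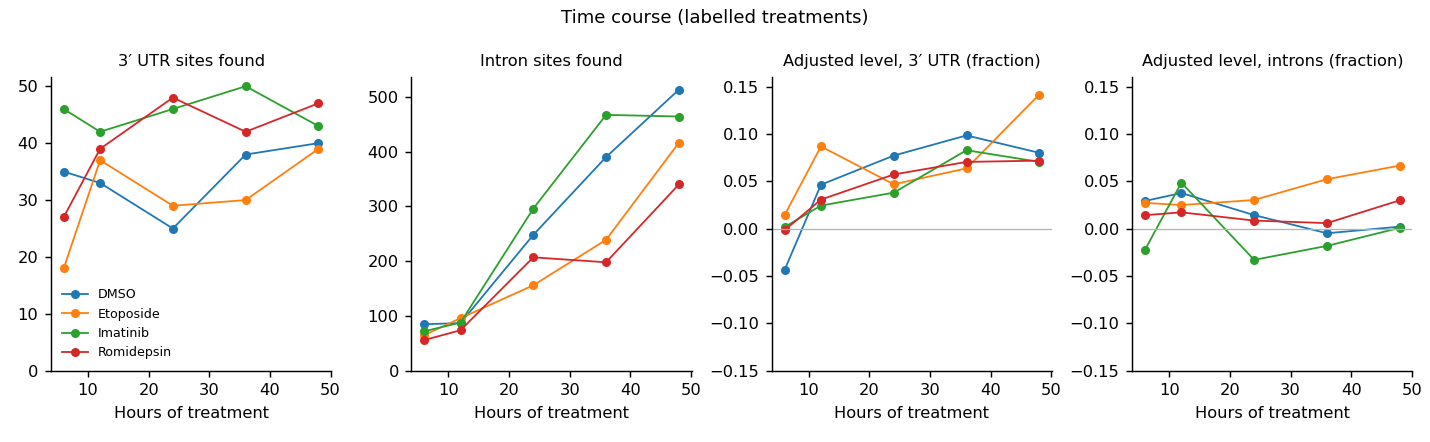
Per-sample values of the time course against hours of treatment, 1 line per labelled treatment, for 3' UTR sites found, intron sites found, and the adjusted levels (fraction, 0 being the mean of each site over the samples in which it was found) in 3' UTRs and introns. Intron sites found climb in all 4 treatments, 3' UTR counts stay between 18 and 50, and the mean adjusted level of 3' UTR sites is higher late than early in each treatment.

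Single sites are given as values, without a test. At the PPIA site the 8 early samples ran from 0.05 to 0.133 (median 0.07) and the 12 late samples from 0.158 to 0.352 (median 0.25), with no overlap. At the SEC61A1 site 7 early samples ran from 0.02 to 0.06 and the 12 late ones from 0.07 to 0.212, again with no overlap. The GNL3L site at 54561640 (0.03 to 0.06 in 6 early, 0.09 to 0.177 in 11 late samples) and a site of ICMT, a carboxyl methyltransferase of prenylated proteins (0.05 to 0.1 in 6, 0.115 to 0.442 in 12), behaved likewise. Of 16 3' UTR sites found in at least 4 early and 6 late samples, 4 had late levels above every early level, which is 25% against 10.2% of the 49 such sites of the whole list, and 0 had late levels below (0.0% of the whole list). The median was higher late at 15 of the 16. The list kept only sites with a maximum level above 0.2. At the SEC61A1 and ICMT sites the highest level in the 96 samples, 0.212 and 0.442, was a late one. Sites that entered the list through late samples may raise these counts, so the counts are no test of a late rise. The GNL3L site found in 95 samples ran from 0.149 to 0.379 early and from 0.351 to 0.769 late, so its ranges overlapped.

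By presence, no single 3' UTR site passed Fisher's exact test with Benjamini-Hochberg adjustment over the 803 sites tested, in either direction, as was the case for the whole list (0.0% called). At an unadjusted p under 0.05, 7 of 78 3' UTR sites were found more often late, against 16.4% of all sites tested, and 2 less often, against 0.872%. The smallest p values were at AJUBA 22972267, found in 8 of 8 early and 2 of 12 late samples, FLCN 17213540, in 2 of 8 and 12 of 12, and SEC16A 136441430, in 0 of 8 and 9 of 12, each with an adjusted p of 0.0504. FLCN encodes folliculin and SEC16A a protein of endoplasmic reticulum exit sites. AJUBA thus ran against the others, and where it was found it had levels of 0.5 to 1.0 early and of 0.75 and 0.833 late.

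With transcription blocked by actinomycin D, the transcripts that remain are those made earlier. In the chase 49.2 ± 12.7 3' UTR sites were found at 0 h (n = 5) and 68.8 ± 16.01 at 2 to 6 h (n = 12), more after each of the 5 pretreatments (difference 19.6, exact permutation p = 0.00463, the smallest possible, adjusted p = 0.0312). The 0 h values were 35 after cyclophosphamide, 42 after talazoparib, 45 after DMSO, 57 after etoposide and 67 after SN-38. The highest value was 98, after etoposide and 2 h of actinomycin D. The groups overlapped, with the lowest 2 to 6 h value at 50. With 1 site counted per cluster the difference was 7.95 and its adjusted p 0.05, just outside the threshold. Intronic sites found were 166.2 ± 30.3 at 0 h and 167.3 ± 59.2 later. The share of 3' UTR sites was 16.9% ± 2.55 at 0 h and 23.4% ± 4.73 later (exact permutation p = 0.0185, adjusted p = 0.1), and at 6 h all 5 samples had 23.6% to 29.7%.

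The adjusted level rose from -0.0675 ± 0.0141 to 0.0357 ± 0.0448, higher after each pretreatment (difference 0.103, exact permutation p = 0.00463, adjusted p = 0.0312). Every one of the 12 later samples lay above the 5 at 0 h, whose range was -0.0806 to -0.0491. The means by hour were -0.067 at 0 h, -0.022 at 1 h, -0.003 at 2 h, 0.047 at 4 h and 0.07 at 6 h. Intronic sites changed more, from -0.0824 ± 0.00638 to 0.0878 ± 0.027, and the 3' UTR measure minus the intron measure fell by 0.067 (exact permutation p = 0.00463, adjusted p = 0.0208 over 9 comparisons, added after seeing the data). The direction of this difference was opposite to that in the time course. Leaving out any 1 pretreatment left differences of 16.5 to 21.5 sites and 0.095 to 0.111 in level, neither of them called (exact permutation test, adjusted p of at least 0.0937, where the smallest unadjusted p is 0.0139).

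**Figure D3:**
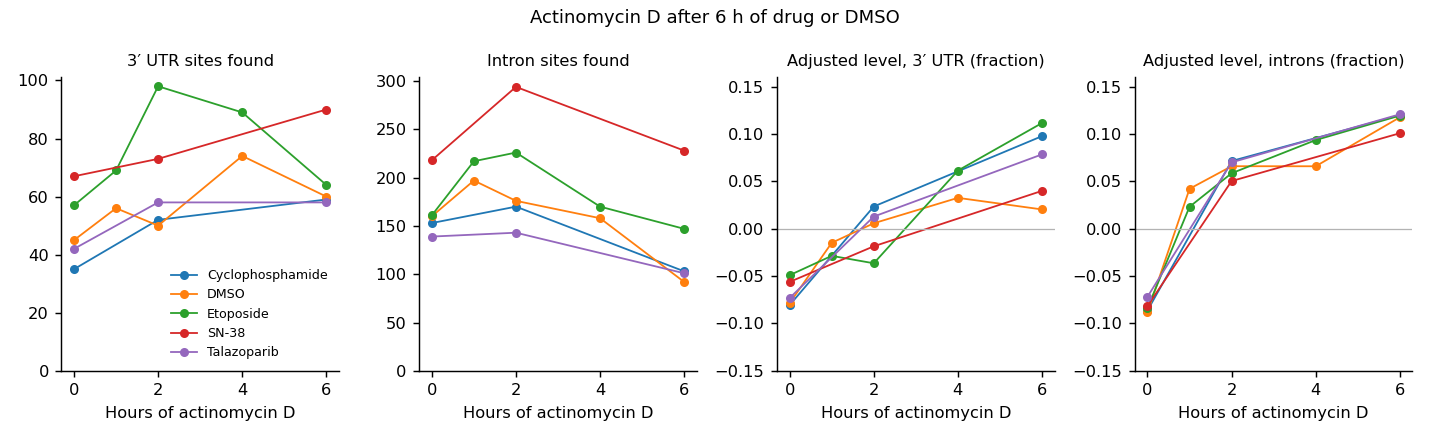
Per-sample values against hours of actinomycin D, 1 line per pretreatment, for 3' UTR sites found, intron sites found, and the adjusted levels (fraction) in 3' UTRs and introns. Both adjusted levels are below 0 in all 5 samples at 0 h and above 0 in all 5 at 6 h, while intron sites found are fewer at 6 h than at 2 h.

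The level changes differed from site to site. At SMU1 33042332 the 4 samples at 0 h in which it was found ran from 0.1 to 0.24 and 11 later samples from 0.356 to 0.889. At PGGT1B 115206616, in the gene of a subunit of a protein prenylation enzyme, 4 samples at 0 h ran from 0.0667 to 0.147 and 11 later ones from 0.231 to 0.792. These and SMU1 33043861 were the 3 sites with no overlap among the 29 found in at least 3 and 6 samples, which is 10.3% against 13.3% of the 45 such sites of the list, and 0 lay below (0.0% of the list). Medians were higher later at 24 of the 29 and lower at 3. The EIF2AK2 site at 37100519 had medians of 0.3 at 0 h and 0.505 later, and that at 37100891 had 0.196 and 0.376, with ranges that overlapped. The third EIF2AK2 site, at 37100954, had 0.171 and 0.177, the PPIA site 0.03 and 0.03, and the FAM20B site 0.045 and 0.04. Changes at these single sites were not tested.

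**Figure D4:**
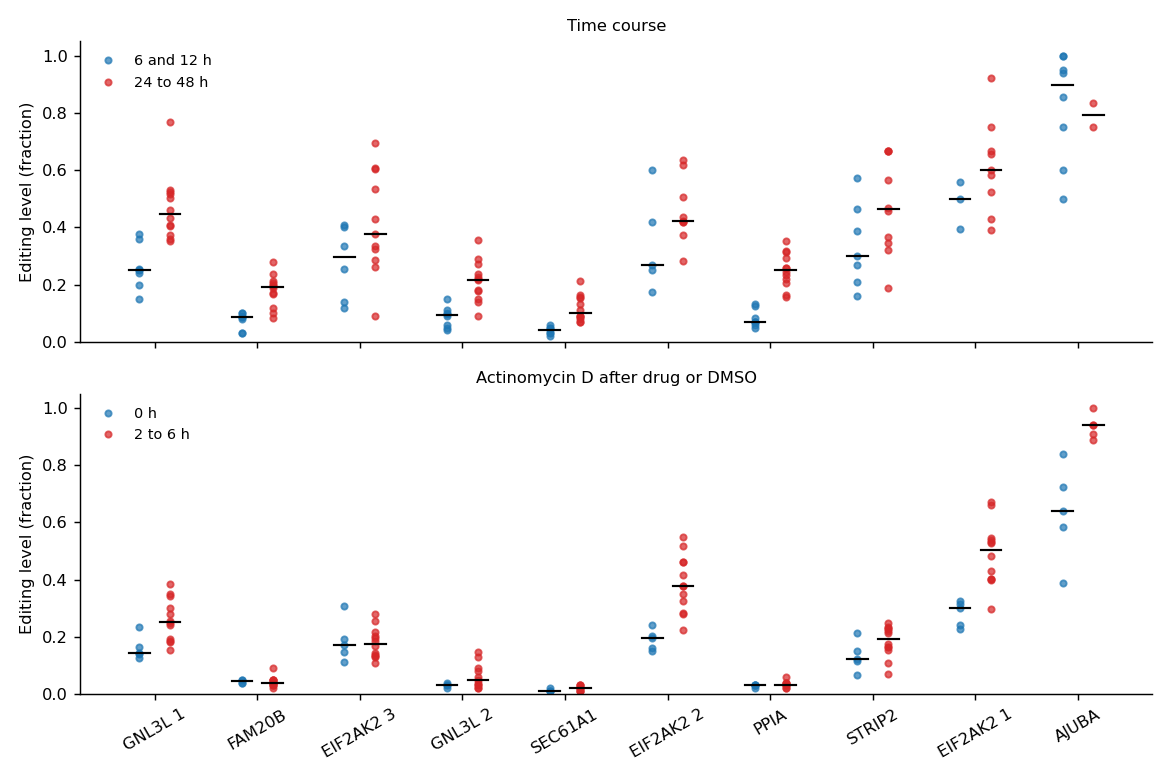
Editing levels (fraction) of the 10 most recurrent 3' UTR sites in samples where each was found, with early and late time course samples above and 0 h and 2 to 6 h of actinomycin D below. Points are samples, bars are medians, and numbered sites of a gene are in order of genome position. The median is higher late for 9 of 10 sites in the time course, AJUBA being the exception, and higher after actinomycin D for 8 of 10.

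By presence, 0 of 122 3' UTR sites tested passed the adjusted threshold in the chase, against 0.334% of the 598 listed sites found more often and 1.67% found less often. At an unadjusted p under 0.05, 8 were found more often, 6.56% against 5.69% of all, and 1 less often, 0.82% against 8.86%. A run of 3 neighbouring BSDC1 sites led. The one at 32367938 was found in 1 of 5 samples at 0 h and 12 of 12 later (Fisher's exact test, adjusted p = 0.0546), 32367939 in 0 and 10, and 32367940 in 2 and 12. Counting only levels of at least 0.1, BSDC1 32367938 (0 of 5 and 12 of 12, Fisher's exact test, adjusted p = 0.00748) and 32367940 (1 and 12, adjusted p = 0.0465) were called, 2 of 91 3' UTR sites against 0.786% of the 509 listed sites tested at this setting, and no 3' UTR site was called as found less often, against 3.73%. The 1 site found less often was AJUBA 22972267, in 5 of 5 and 5 of 12. These per-site tests pooled samples over pretreatments, without blocks.

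The alpha-amanitin chase had 2 samples at 0 h and 6 later, so its smallest p was 0.125. Found 3' UTR sites were 50.5 ± 0.707 at 0 h and 60.3 ± 8.62 later, their share 23.0% ± 8.22 and 29.3% ± 3.51 (exact permutation p = 0.25 for both), and the adjusted level -0.0289 ± 0.00409 and -0.00413 ± 0.0435 (exact permutation p = 0.5). Without a pretreatment each time had 1 sample. Actinomycin D gave 73 sites at 2 h beside 64 in DMSO, and 58 at 6 h beside 46, with adjusted levels of -0.0257 beside -0.0524 and 0.000784 beside -0.0215. Alpha-amanitin gave 34 sites at 2 h beside 43 in DMSO of the same set, and 57 at 6 h. The untreated sample had 41 sites.

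The drugs were set against DMSO, and doxycycline against water, under matched conditions, and no such result passed adjustment over the 27. The nearest was the share after etoposide, 26.6% ± 8.35 against 21.9% ± 6.42 in 13 matched pairs, higher in 11 of 13 (exact permutation p = 0.0332, adjusted p = 0.149). Found sites were 57.1 ± 21.9 against 49.8 ± 15.2 there. SN-38 had 50.9 ± 25.6 sites against 40.4 ± 11.6 in 7 pairs, and a share of 17.4% ± 5.5 against 20.1% ± 5.85, lower in 6 of 7 (exact permutation p = 0.141 for both). SN-38 found 187.6 ± 76.2 intronic sites against 117.6 ± 46.2 in DMSO. Set directly against each other in the 7 shared conditions, etoposide had a share 8.81 ± 8.83 percentage points above SN-38, higher in 6 of 7 (exact permutation p = 0.0312, adjusted p = 0.0938 over 3 measures), a comparison added after seeing the data. The mean number of found 3' UTR sites was 50.7 with etoposide and 50.9 with SN-38. In the wash-out at 0, 2 and 6 h, intronic sites found were 39, 30 and 49 with etoposide and 162, 82 and 101 with SN-38. They were also fewer with etoposide in the chase pairs, and more in the pair after DMSO for 3 h (260 against 228).

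Imatinib had more 3' UTR sites than DMSO at each of 5 times, 45.4 ± 3.13 against 34.2 ± 5.81, and a higher share at each, 15.5% ± 9.24 against 12.6% ± 7.52, for both of which the exact permutation p was 0.0625, the smallest that 5 pairs allow (adjusted p = 0.211). Talazoparib had 47.3 ± 13.2 against 46.8 ± 11.6 sites in 4 pairs, and an adjusted level 0.0217 above DMSO, higher in 4 of 4 (exact permutation p = 0.125, adjusted p = 0.292). The kinase inhibitor mixture had 50.8 ± 18.5 against 39.3 ± 10.2 sites in 4 pairs, higher in 3 of 4 (exact permutation p = 0.25, adjusted p = 0.397). Neither design could pass, the smallest exact p being 0.125. Doxycycline had 15.5 ± 8.73 against 14.6 ± 9.01 sites in 8 pairs (exact permutation p = 0.812). Torin1, which blocks both mTOR complexes, gave 49 and 50 sites at 3 and 6 h and rapamycin, a partial mTOR inhibitor, 19 and 29, with 1 sample each.

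Unannotated 3' UTR sites were few in the list, which kept them only where both RED-ML and SPRINT predicted them or Sanger sequencing showed them. Their number and levels therefore depend on this filter. Of the 15, the 6 with levels were found in 2 to 14 samples. The UGGT1 site at 128193918 of chromosome 2, in the glucosyltransferase that checks glycoprotein folding, was found in 14 samples at a median of 0.0525 (0.0204 to 0.215), and both bases before it were listed from Sanger sequencing alone. The DCPS site at 126349315 was found in 7 samples at 0.0714, and those of YAF2 (42234576) and CDC6 (40304575) in 3 each at 0.125 and 0.0769. SLC25A16 (68480032) and SLC26A2 (149981861) were found in 2 samples each, at medians of 0.428 and 0.261. The other 7 without levels were 3 in TEP1 (20366268, 20366276 and 20366279), 3 in QSOX1 (180198028, 180198029 and 180198037) and 1 in STXBP4 (55168012). A median of 0.101 over the 6 unannotated sites stands beside 0.2 for the annotated ones, which needed only RED-ML or SPRINT.

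Host genes of 3 gene lists were counted. Of 16 genes of double-stranded RNA sensing and ADAR, EIF2AK2 with 9 sites and RIGI, a cytosolic RNA sensor, with 1 held 3' UTR sites, and ADAR itself held none. Of 18 genes of p53 and DNA damage, MRE11, a double-strand break nuclease, had 1 site, found in 2 samples at 0.12 and 0.317. Of 16 genes known for 3' UTR editing in other cells, EIF2AK2, DFFA and TTF2 held 12 sites together. Symbols starting with ZNF numbered 4, with 26 sites, of which ZNF514 had 21. The RIGI site and 3 of the 5 KRBA2 sites also lay in the 3' UTR of an overlapping gene model, so their host is uncertain.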

How the data were processed

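RNA of K562 cells and derivatives was sequenced by the authors from strand-specific, rRNA-depleted libraries. Per the methods and the submitters' processing notes, reads were aligned to GRCh38/hg38 with TopHat2 2.1.1, duplicates were removed with Picard 2.0.1 and SAMtools 1.9 was used. Sites were called with REDItools, RED-ML and SPRINT, known variants, repeats and poorly mappable regions were removed, and sites found in at least 2 of 130 samples with a maximum level above 0.2 were kept, which favours recurrent and strongly edited sites. Annotated sites also needed RED-ML or SPRINT. Unannotated sites outside introns and very long intergenic non-coding RNAs needed both of these methods, apart from those added from Sanger sequencing. The deposited values are fractions from 0 to 1, averaged by the authors over methods, with no read depth, so counting intervals for levels cannot be given. Of 130 level columns, 34 matched no sample used here and were left out.

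The sites were placed on GENCODE release 44. Per sample, found 3' UTR sites, their percentage of all found sites, and the adjusted level over sites found in at least 3 samples were computed. Exact permutation tests, two-sided, permuted times within treatments or flipped matched pairs, with Benjamini-Hochberg adjustment over 27 results. Fisher's exact test was run per site over all listed sites found in at least 3 of the compared samples. It pooled samples over treatments or pretreatments, without the blocks of the permutation tests. 3' UTRs and introns were compared within samples by sign flips (100000 resamples, at least 5 found sites in each element). Alternatives were annotated sites only, 1 site per cluster, levels of at least 0.1, at least 2 methods, leaving out the gene with most sites, other groupings of times, and leaving out pairs, treatments, lines or sets in turn. Tests were tried on simulated data.

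The members and lists were chosen with earlier results of these data known. Named were the 10 sites found in most samples, the 5 genes with most sites, the 5 highest medians among sites found in at least 10 samples, sites past an adjusted p of 0.05, unannotated sites and the 3 largest clusters. Other sites were named after their values were seen. Alignments used biopython 1.88, tests scipy 1.17.1 and numpy 2.4.6, tables pandas 2.3.3 and plots matplotlib 3.10.9, under Python 3.11.15.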

Additional observations from a re-analysis of the deposited data

Results flagged for a closer look

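In the SN-38 samples, the adjusted level of 3' UTR sites was 0.03995 after 6 h of actinomycin D, far above the other 6 samples, which lay between -0.0562 and -0.0159. Its gap to the nearest sample was 0.581 of the whole range. It was the only such value among 39 groups of 4 to 10 samples and measures examined, where about 1 in 20 would stand apart by chance, and all 5 pretreatments had levels above 0 at that time.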

How the results depend on the processing

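No paired analysis was possible because groups that share replicate numbers were not compared with each other, and the matched pairs used were matched by condition, not by replicate number. The within-sample contrasts with introns kept their direction and p under every alternative (leaving out 1 set, -0.242 to -0.228 for the level and 7.74 to 10.7 for the percentage found). In the time course, found 3' UTR sites became a called rise with 1 site per cluster (5.79) and with levels of at least 0.1 (10.0), whereas the level rise of 0.0252 at the latter setting was not called. With imatinib and DMSO only, the share change of -15.2 and the level change of 0.0673 were not called, and could not be. With 1 site per cluster the actinomycin D difference in found sites (7.95) was not called. Sites passing Fisher's exact test numbered 9 without adjustment in each comparison, against 0, and 2 with levels of at least 0.1 under actinomycin D.

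Signs turned only for results that were not called. With 1 site per cluster these were the kinase inhibitor share (-0.137) and doxycycline level (-0.0237). With levels of at least 0.1 they were the SN-38 level (-0.000398), the kinase inhibitor level (0.00109), and doxycycline sites (-1.25) and share (-0.571). Without SMU1 it was the doxycycline level (-0.00307), and without RSPH3, added after seeing the data, the kinase inhibitor level (0.00342).

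Leaving out 1 treatment, the time course gave -14.5 to -11.6 for share, always called, and 0.0454 to 0.0622 for level, called only without etoposide (adjusted p of 0.1 or 0.0945 without DMSO, romidepsin or imatinib). Here etoposide and romidepsin are the labelled names, which may be exchanged. The actinomycin D chase gave 16.5 to 21.5 for sites and 0.095 to 0.111 for level, none called, since the smallest p was then 0.0139 and the adjusted p at least 0.0937. Leaving out 1 pair or line gave an etoposide share of 3.37 to 5.61 (called at an adjusted p of 0.0448 without the 6 h actinomycin D pair), an SN-38 level of -0.013 to 0.0154, talazoparib sites of -2.0 to 1.67 and share of -0.848 to 1.71, a kinase inhibitor level of -0.0234 to 0.00366, doxycycline sites of -1.29 to 3.0 and an alpha-amanitin level of -0.00977 to 0.0593. Read depth at the sites is unknown, which limits all counts of found sites.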
